A study of Mus musculus with 4 samples.

Results

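Among the 1933 genes in the list of RREB1-3V5 binding sites from mouse cerebellum, 14 encoded proteins of the ribosome, 8 of the cytosolic ribosome and 6 of the mitochondrial ribosome. They were taken by name, as rows of protein-coding genes whose symbol began with Rpl, Rps or Rplp and a digit, or with Mrpl or Mrps. The Rps6k kinases and pseudogenes were left out. RefSeq held 166 protein-coding genes with such names, 88 cytosolic and 78 mitochondrial. The share of them in the list was close to that of all protein-coding genes. Nearly all of their listed peaks lay at transcription starts, where the listed peaks of other genes lay less often.

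The list came from ChIP-seq of the transcription factor RREB1, whose targets in Purkinje cells the study set out to find. The samples were cerebella of Tg(PCP2-Rreb1/3V5)20/J mice at 3 weeks of age, 1 female and 1 male that were not pooled, each giving 1 ChIP library made with an antibody to V5 and 1 input library of the same genotype. The transgene carried the coding sequence of the Rreb1 transcript V7 with 3 V5 tags under the Purkinje cell promoter PCP2, so the list describes an added tagged isoform in whole cerebellar lysate and there was no animal without the transgene. Both ChIP libraries entered as 1 merged list with 1 row per gene and no count, height or score, so peak strength and the spread between the animals were not measured here and the tissue could not be checked against marker genes.

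Cytosolic ribosomes translate nuclear-encoded mRNAs and consist of a small subunit, which reads the mRNA, and a large subunit, which joins the amino acids. Mitochondrial ribosomes are separate particles inside the organelle that make the few proteins its own genome encodes, and all of their proteins are imported. In mammals the cytosolic ribosomal protein genes are short, are highly expressed in every cell and start transcription at a C within a run of pyrimidines, the TOP element (terminal oligopyrimidine), through which the translation of their mRNAs follows growth signals.

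A listed peak was found for 14 of the 166 ribosomal protein genes, which is 8.43% (95% Wilson interval 5.09 to 13.7), beside 1641 of 21887 protein-coding genes in RefSeq, or 7.5%. The cytosolic share was 9.09% (8 of 88, 4.68 to 16.9) and the mitochondrial share was 7.69% (6 of 78, 3.57 to 15.8). The 166 were taken by name and include paralogs and partners such as Rps19bp1. Without these, 14 of 154 genes were listed (9.09%), and 8 of 76 cytosolic genes (10.5%). Each interval held the share of all protein-coding genes, so being in the list did not set ribosomal protein genes apart. For peaks in the promoter class of the table, the count was 12 of 166, or 7.23% (4.18 to 12.2), beside 2.91% of all protein-coding genes. The interval for promoter peaks lay above the share of all genes. All genes include those silent in the cerebellum. The share among active genes was not measured, so the part of expression was not tested. Taken apart, the cytosolic interval lay above the share of all genes (7.95%, 3.91 to 15.5) and the mitochondrial interval held it (6.41%, 2.77 to 14.1). The cytosolic count includes Rpl37 and Rps27a, whose peaks lay nearer to the starts of Card6 (20 bp) and Clhc1 (58 bp). The promoter share without these peaks was not computed. Genes of both small subunits were listed at higher shares, 14.7% of 34 cytosolic genes and 13.8% of 29 mitochondrial genes, than genes of the large subunits, 5.56% of 54 and 4.08% of 49. The intervals of the 4 groups overlapped, for example 6.45 to 30.1 in the cytosolic small subunit and 1.91 to 15.1 in the cytosolic large subunit. A difference between the groups was not tested. The subunit was taken from the symbol. Structures of the mammalian particle place the products of Mrps30, a listed gene, and Mrps18a in the large subunit, and counted there they gave 3 of 27 mitochondrial small subunit genes (11.1%) and 3 of 51 large subunit genes (5.88%), a grouping chosen after the values were seen. All intervals cover counting error only. The gene family was also chosen with earlier results of these data known, so they cannot show an excess over all genes.

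**Figure D1:**
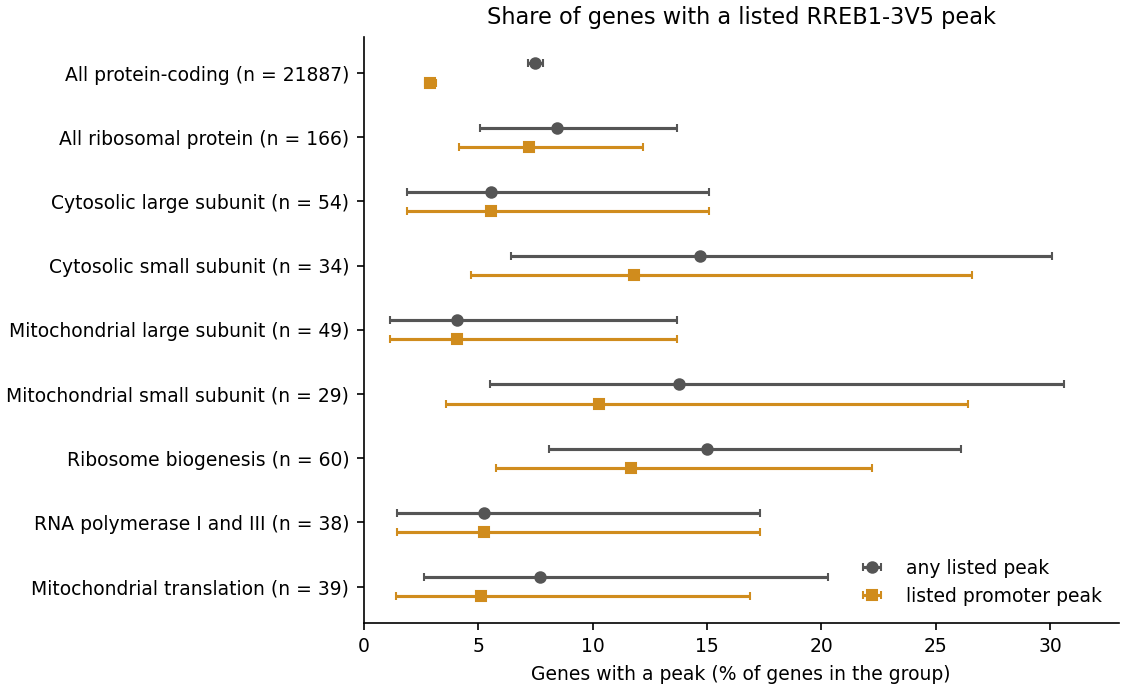
Share of genes in each group with any listed peak (circles) and with a listed promoter peak (squares), in percent, with 95% Wilson intervals as bars and the number of genes in brackets. Ribosomal protein genes lie close to all protein-coding genes for any peak (8.43% and 7.5%) and above them for promoter peaks (7.23% and 2.91%).

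Of the 14 listed peaks, 12 were in the promoter class, which is 85.7% (60.1 to 96). Among the other listed protein-coding genes the class held 624 of 1625 peaks, 38.4% (36.1 to 40.8), and the intervals did not overlap. The promoter class held 7 of the 8 cytosolic peaks and 5 of the 6 mitochondrial peaks. It also held 7 of the 9 peaks of ribosome biogenesis genes described below. For subunits of RNA polymerases I and III it held 2 of 2, and for mitochondrial translation 2 of 3. The share was thus also high among ribosome biogenesis genes, so it was not seen in ribosomal protein genes alone. The other groups held too few peaks to compare, and all these lists were drawn up with earlier results known. The median distance from the start of the assigned transcript was 77 bp for the ribosomal protein genes and 6371 bp for the other listed protein-coding genes. The groups also differed in gene length, whose median was 3.4 kb for the listed cytosolic genes, 13 kb for the listed mitochondrial genes and 38.6 kb for the other listed protein-coding genes. Its part in the promoter share was not tested. Compared with promoter peaks only, the ribosomal peaks lay much like the rest, at a median of 67 bp from the start beside 88 bp, with 10 of 12 upstream (83.3%) beside 83.5%. All 12 lay within 250 bp of the start, beside 85.3% of the other promoter peaks, a share inside the interval for the ribosomal genes (75.8 to 100).

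**Figure D2:**
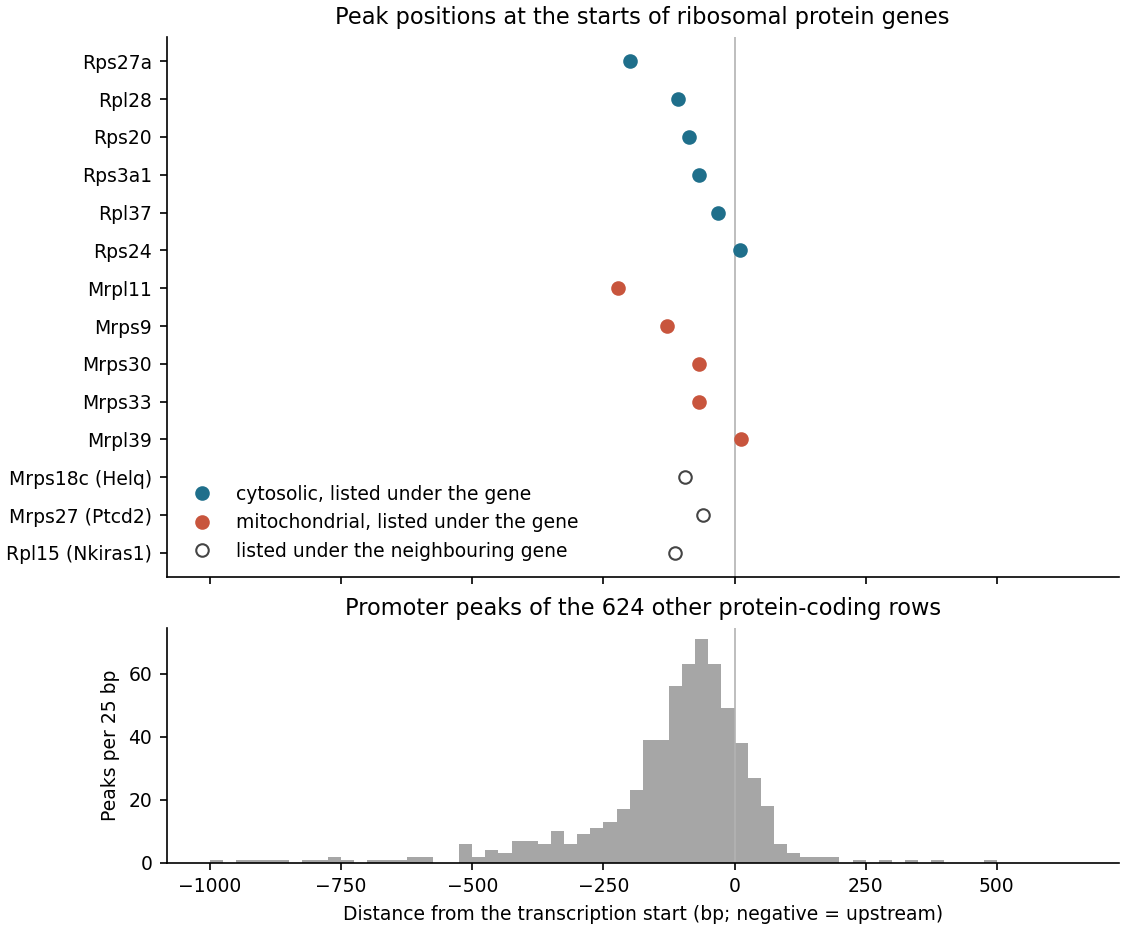
Upper panel, distance in bp from the transcription start to the listed peak for 11 of the 12 ribosomal promoter peaks (filled, distance as in the table) and for 3 peaks at ribosomal protein gene starts that the table lists under a neighbouring gene, named in brackets (open, distance from the RefSeq start). Lower panel, number of promoter peaks per 25 bp for the 624 other protein-coding rows. The ribosomal peaks span 223 bp upstream to 12 bp downstream and sit under the main mass of the distribution.

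Rpl28 and Rpl37 were among the listed genes of the cytosolic large subunit. Rpl28 encodes a protein found in eukaryotic but not bacterial ribosomes, and its peak lay 108 bp upstream of the start, at position 4792857 of chromosome 7. Rpl37, which encodes a zinc-binding protein, had its peak 31 bp upstream, at position 5116582 of chromosome 15. The start of Card6, a gene for a protein with a caspase recruitment domain, lay on the opposite strand only 51 bp away from that of Rpl37. The Rpl37 peak was nearer to Card6, at 20 bp, and fell between both starts.

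The cytosolic small subunit had the most listed genes. Rps3a1, whose protein takes part in the maturation of the small subunit, had its peak 67 bp upstream, at position 86142735 of chromosome 3. Rps24, a gene mutated in some families with Diamond-Blackfan anaemia in humans, had its peak 11 bp downstream, at position 24490689 of chromosome 14, in the noncoding part of its first exon. Rps20 had its peak 87 bp upstream, at position 3835742 of chromosome 4. A long noncoding RNA, Gm32823, starts 6 bp from Rps20 on the opposite strand. Rps27a encodes a fusion of ubiquitin with a small subunit protein and is thereby also one of the genes that supply ubiquitin. Its peak lay 200 bp upstream, at position 29548240 of chromosome 11, past the start of the divergent gene Clhc1, which was 142 bp from that of Rps27a and 58 bp from the peak. Rps10, also mutated in some families with Diamond-Blackfan anaemia in humans, was the only cytosolic gene whose peak was distal, 7474 bp upstream in an intergenic stretch, at position 27642718 of chromosome 17.

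The 2 listed genes of the mitochondrial large subunit were Mrpl11 and Mrpl39. Mrpl11 encodes the counterpart of bacterial L11, which sits where translation factors contact the ribosome. Its peak was 223 bp upstream of the start used by the table and 69 bp upstream of a second, predicted RefSeq start, at position 4962083 of chromosome 19. Mrpl39 encodes a protein with no bacterial counterpart, and its peak at position 84735290 of chromosome 16 was 12 bp downstream of the start in the table and 46 bp upstream of the RefSeq start. These were the 2 members whose distance differed between the table and RefSeq, and the other 12 distances were identical.

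Of the genes named for the mitochondrial small subunit, Mrps9, Mrps30 and Mrps33 had promoter peaks and Mrps27 had an intronic one. Mrps9, the counterpart of bacterial S9, had its peak 128 bp upstream, at position 42851105 of chromosome 1. Mrps30, which keeps its name although structures of the mammalian particle place the protein in the large subunit, had its peak 67 bp upstream, at position 118387319 of chromosome 13. Mrps33, for a protein of the mitochondrial small subunit without a bacterial counterpart, also had its peak 67 bp upstream, at position 39811003 of chromosome 6. Mrps27 encodes an RNA-binding protein with pentatricopeptide repeats. Its listed peak lay 8536 bp downstream of the start in intron 2 of 10, at position 99353322 of chromosome 13.

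The list names 1 gene per peak and 1 peak per gene, so the start of each of the 166 genes was also compared with every listed position. Any listed peak lay within 1 kb of a RefSeq start for 15 of the ribosomal protein genes, or 9.04% (5.55 to 14.4), beside 3.84% of all protein-coding genes. The 3 genes that joined the 12 with promoter peaks of their own share a divergent promoter with the gene that the table names. The peak listed under Ptcd2, another pentatricopeptide repeat gene, lay 60 bp from the start of Mrps27 and 29 bp from that of Ptcd2, so Mrps27 had a peak at its promoter as well as the one in its intron. The peak listed under Helq, a DNA helicase gene, lay 94 bp from the start of Mrps18c and 4 bp from a RefSeq start of Helq. It was 65 bp upstream of the Helq start used by the list. The peak listed under Nkiras1, a gene for a small Ras-like regulator of NF-kappaB, lay 113 bp from the start of Rpl15 and 37 bp from that of Nkiras1. A start on the opposite strand within 1 kb was as common at the ribosomal promoter peaks (3 of 12, 25%) as at the others (167 of 624, 26.8%). For a peak between divergent starts, the position cannot tell which of the genes it belongs to.

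The other 150 ribosomal protein genes had neither a listed peak of their own nor one of another gene within 1 kb of a start. Among the 152 without a peak of their own, the median distance to the nearest listed peak was 249 kb, and after Mrps18c and Rpl15 the closest was Rpl3, which encodes a protein near the peptidyl transferase centre, at 9.41 kb. The median over all unlisted protein-coding genes was 351 kb. Peak numbers in the list run to 3043 and 1110 of them are missing from it, so a second peak of another listed gene near these starts could not be seen. Numbers missing beside the listed ribosomal peaks ranged from 0 to 3, with the most next to Rps3a1 (3 before and 2 after) and Rps10 (3 before).

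The sequences under the peaks were read from the mouse genome (GRCm38, the build of mm10) and, for promoters, from RefSeq, which had an entry for 11 of the 14 members. The first set shows the listed peaks with the letters CCATCTG, the core of the E-box bound by NeuroD factors, because these were the distal peaks and 1 promoter peak. Each is given 5′ to 3′ in the direction of its gene, with those letters or their reverse complement in capitals. Rps10 is at chr17:27642688-27642748 (minus strand), with the listed position at base 31. Mrps27 is at chr13:99353247-99353337 (plus strand), with the listed position at base 76. Mrpl11 is at chr19:4962003-4962093 (plus strand), with the listed position at base 81. The last stretch is the shared promoter of Mrps27 and Ptcd2 at chr13:99344661-99344727 (plus strand), with the position listed under Ptcd2 at base 47.
Rps10, intergenic: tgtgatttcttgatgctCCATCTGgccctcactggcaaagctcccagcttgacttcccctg
Mrps27, intron 2: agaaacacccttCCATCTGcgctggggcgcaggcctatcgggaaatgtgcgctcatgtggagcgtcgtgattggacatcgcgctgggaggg
Mrpl11, promoter: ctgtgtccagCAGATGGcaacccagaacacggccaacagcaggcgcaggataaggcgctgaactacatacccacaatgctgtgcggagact
Mrps27 and Ptcd2, promoter: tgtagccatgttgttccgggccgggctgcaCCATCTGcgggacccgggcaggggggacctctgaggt

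The E-box CCATCTG was present within 100 bp on either side of the listed position in both distal peaks, 7 bp from the position at Rps10 and 57 bp at Mrps27. Of the 1001 other protein-coding peaks outside promoters, 437 held it (43.7%). Among the 12 ribosomal promoter peaks it was found at Mrpl11 only, 64 bp from the position, which is 8.33% (1.49 to 35.4) beside 4.01% of the 624 other promoter peaks. The interval for the ribosomal promoters held the share of the other promoters. At the promoter shared by Mrps27 and Ptcd2 the letters stood 10 bp from the listed position, so both peaks near Mrps27 held them. Over all 300-base RefSeq promoters 4.9% held the letters, beside 3 of 68 cytosolic and 1 of 69 mitochondrial ribosomal protein genes.

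The second set shows the 67 bases from the listed position to the base before the start in the 3 members whose peak lay at the same distance. Capitals mark the letters CCGGAAG, a core of sites of ETS family factors, in Rps3a1, and an E-box of the general form CANNTG in Mrps30. Mrps33 had no match in this stretch and is shown without capitals. The stretches are from RefSeq promoters, minus strand, at chr3:86142669-86142735, chr13:118387253-118387319 and chr6:39810937-39811003.
Rps3a1: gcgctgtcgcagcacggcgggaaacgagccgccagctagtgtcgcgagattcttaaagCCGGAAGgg
Mrps30: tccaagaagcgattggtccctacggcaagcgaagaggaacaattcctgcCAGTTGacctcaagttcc
Mrps33: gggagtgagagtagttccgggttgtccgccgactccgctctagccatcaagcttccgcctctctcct

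The other motifs were searched on both strands in the same windows. The letters GGGCGG of Sp and KLF factors were found at 5 of the 12 ribosomal promoter peaks (41.7%, 19.3 to 68), among them Rpl37, Rps20, Mrps9 and Mrps33, beside 52.1% of the other promoter peaks. CCGGAAG was found at 2, Rpl37 and Rps3a1, which is 16.7% (4.7 to 44.8) beside 18.3%. The letters GCCATNTT of YY1 were found at Rpl28 and Mrps30, again 16.7%, beside 6.57%, and GCGCATGC of NRF1, a regulator of nuclear genes for mitochondrial proteins, at Mrpl39 only, 8.33% beside 5.29%. The C-rich letters CCCCACC were found at Rpl28 and Rps27a, 16.7% beside 10.1%. An E-box of any form, CANNTG, which includes CCATCTG, stood at 5 of 12 (41.7%) beside 48.4%. CCAAACCA and AAACCACC, which overlap each other as parts of the RREB1 consensus, the cyclic AMP response element TGACGTCA and the TATA letters TATAAA were found at none of the 14 positions, beside 0.321%, 0.481%, 2.24% and 1.12% of the other promoter peaks. At Rps24 none of the 11 motifs was found. For every motif in this window the interval of the ribosomal promoter peaks held the share of the other promoter peaks. With 200 bp on each side CANNTG was an exception, still at 5 of 12 ribosomal promoter peaks (19.3 to 68) beside 73.1% of the others.

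**Figure D3:**
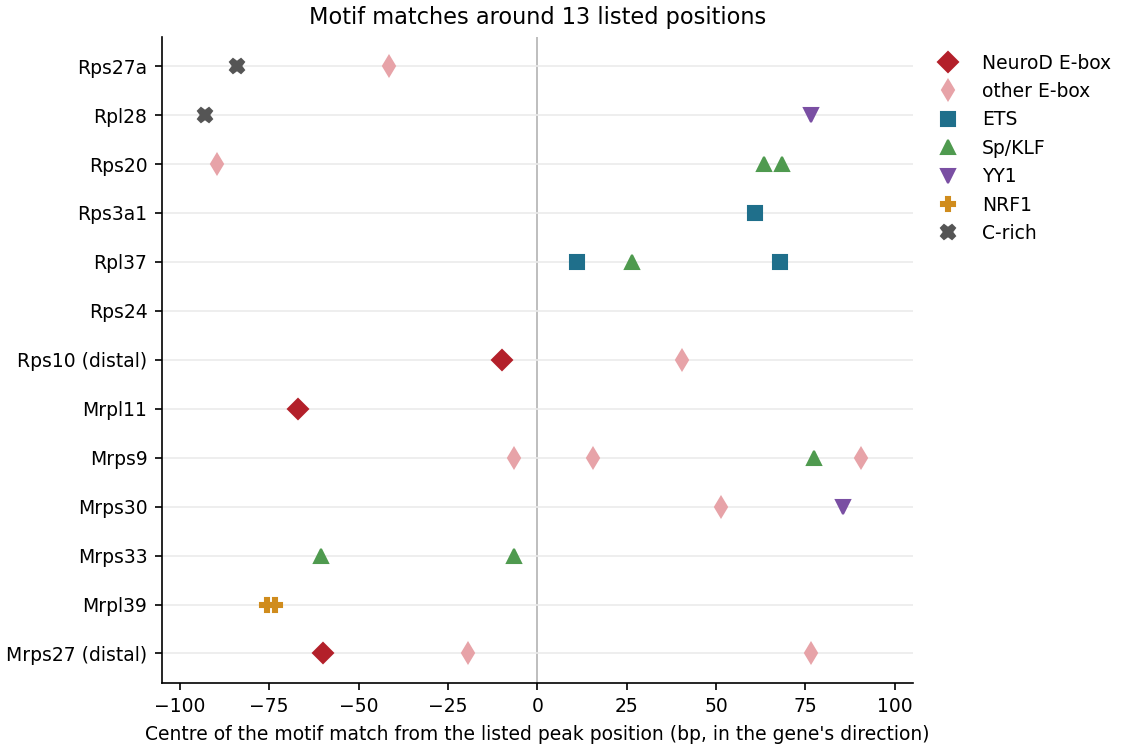
Centre of each motif match, in bp from the listed peak position and in the direction of the gene, for 13 of the 14 listed ribosomal protein genes. Matches on both strands are shown within 100 bp of the position. The NeuroD E-box is at the distal peaks of Rps10 and Mrps27 and at Mrpl11, and Rps24 has no match.

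Promoters of the whole gene family differed from other promoters in some of these letters, whether or not a peak was listed. Within the 250 bases before and 50 after the start, CCGGAAG was present in 25 of 68 cytosolic (36.8%) and 26 of 69 mitochondrial (37.7%) genes beside 12.9% of all protein-coding promoters. GCCATNTT was present in 19.1% and 30.4% beside 7.46%. For GGGCGG the shares were 58.8% and 49.3% beside 49.2%, for GCGCATGC they were 4.41% and 11.6% beside 3.94%, and for CANNTG they were 54.4% and 63.8% beside 72.1%. CCCCACC stood in 14.7% and 13% beside 19.1%, TGACGTCA in 7.35% and 2.9% beside 2.54%, TATAAA in 11.8% and 7.25% beside 14.8%, CCAAACCA in 1.47% and 0% beside 1.43%, and AAACCACC in 1.47% and 4.35% beside 1.02%. A match is a description of the letters and not a bound site.

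A TOP element, taken as a C at the annotated start followed by at least 4 pyrimidines, was found in 15 of 68 cytosolic promoters (22.1%, 13.8 to 33.3), in 0 of 69 mitochondrial promoters (upper limit 5.27%) and in 2.67% of all protein-coding promoters. Of the listed genes with a RefSeq promoter, Rpl28 and Rps10 had one and Rpl37, Rps24 and Rps3a1 did not, nor did the 6 mitochondrial genes. The count depended on the exact base taken as the start. With the run allowed to begin within 10 bp of it, the shares were 61.8% of cytosolic, 44.9% of mitochondrial and 34.9% of all protein-coding promoters, and Rps24, Mrpl11, Mrps27 and Mrps33 then also had one. The third set shows 2 TOP starts and 2 stretches with promoter motifs. In Rpl28 (chr7:4792925-4792974, plus strand) the capitals are GCCATNTT and, from base 41, the start of the TOP run. In Rps10 (chr17:27635225-27635284, minus strand) they are the TOP run, also from base 41, and CCGGAAG stands upstream of it in lower case. In Rpl37 (chr15:5116563-5116612, plus strand), which covers the bases between the starts of Card6 and Rpl37 with the listed position at base 20, they are CCGGAAG and GGGCGG. In Mrpl39 (chr16:84735354-84735379, minus strand) they are the palindromic pair of overlapping NRF1 matches.
Rpl28: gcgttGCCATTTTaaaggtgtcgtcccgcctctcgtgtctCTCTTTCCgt
Rps10: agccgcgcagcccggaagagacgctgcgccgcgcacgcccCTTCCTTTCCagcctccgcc
Rpl37: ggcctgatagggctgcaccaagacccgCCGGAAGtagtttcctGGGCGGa
Mrpl39: aaggagaggcGCGCATGCGCccccgc

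Base composition at the ribosomal promoter peaks was close to that at the promoter peaks of other listed genes. Over the 201 bases around the listed position, GC content at the 12 ribosomal promoter peaks ranged from 47.3% to 69.7% with a median of 61.9%, beside a median of 61.2% at the other promoter peaks and 53.7% at the other peaks outside promoters. The ratio of observed to expected CpG dinucleotides, which is near 1 in CpG islands and low in most of the genome, had a median of 0.831 beside 0.767 and 0.176. The position listed under Rps27a stood apart with the lowest GC content, 47.3%, and the lowest CpG ratio, 0.281. Its window covers the start of Clhc1, 58 bp from the position, and does not reach that of Rps27a, 200 bp away. Rps20 had the highest GC content, 69.7%, and Rpl28 the highest CpG ratio, 1.06. The distal positions were rich in GC, 59.7% at Rps10 and 60.2% at Mrps27. The CpG ratio of the Mrps27 intron peak, 0.779, was near the promoter median, whereas that of the Rps10 peak was 0.337.

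**Figure D4:**
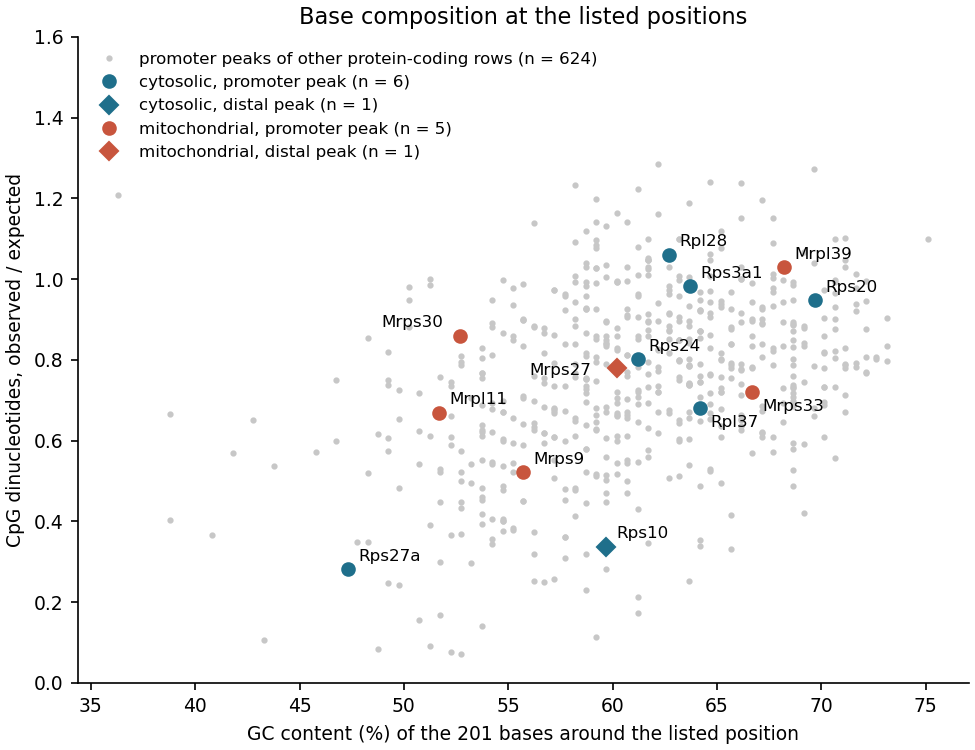
GC content in percent and ratio of observed to expected CpG dinucleotides over 201 bases around the listed position, for 13 of the 14 ribosomal protein genes (coloured, named) and the 624 promoter peaks of other protein-coding rows (grey). The position listed under Rps27a, nearer to the start of Clhc1, has the lowest values of the ribosomal protein genes (47.3% and 0.281). The distal Mrps27 position (60.2% and 0.779) lies among the promoter peaks.

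Cytosolic ribosomal protein genes are frequent hosts of small nucleolar RNAs, which guide the modification of ribosomal RNA. Of the 8 listed cytosolic genes 4 held one, among them Rpl37 with Snord72, Rps3a1 with Snord73a and Rps20, which is 50% (21.5 to 78.5) beside 25 of the 80 unlisted cytosolic genes (31.2%, 22.2 to 42.1). The intervals overlapped. None of the 78 mitochondrial genes held one.

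Genes that build or serve ribosomes were looked up by lists drawn up with earlier results of these data known. Of 60 genes of ribosome biogenesis 9 were listed (15%, 8.1 to 26.1), 7 of them with promoter peaks (11.7%, 5.77 to 22.2). The promoter peaks were at Bysl (25 bp upstream), Ddx47 (69 bp), Utp3 (116 bp), Riok3 (143 bp), Pes1 (163 bp) and Lsg1 (264 bp), and at Riok1 238 bp downstream of its start. Bysl, Riok1, Riok3, Utp3 and Ddx47 act in the assembly of the small subunit, and Pes1 and Lsg1 in that of the large subunit. Rsl24d1 and Utp18 were named for distal peaks, 85500 and 319871 bp from their starts. The shares of all protein-coding genes were 7.5% and 2.91%. As the list was drawn up with earlier results known, its intervals cannot show an excess over these shares. Of 38 subunits of RNA polymerases I and III, which transcribe ribosomal RNA and transfer RNA, 2 were listed (5.26%, 1.46 to 17.3), Polr1b 65 bp and Polr3k 37 bp upstream of the start. Of 39 genes of mitochondrial translation, 3 were listed (7.69%, 2.65 to 20.3). These were Gfm1, an elongation factor (49 bp upstream), Lars2, a leucyl-tRNA synthetase (28 bp upstream), and Mtrf1, a release factor family member (154 bp downstream). Ribosomal proteins with symbols outside the naming rule added Aurkaip1, 1 of 5 mitochondrial genes, with a peak 313 bp downstream of the start, and 0 of 4 cytosolic genes, which allows up to 49%. All these distances are from the start that the list used. A listed peak lay closer to a RefSeq start of Riok1 (12 bp), Polr1b (39 bp) and Lsg1 (241 bp). The same held for Aurkaip1 (277 bp) and Utp18 (82619 bp).

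The rows left out by the rule were 3 kinases and 2 pseudogenes. Rps6ka2, for a kinase that phosphorylates the ribosomal protein S6 among other proteins, had a promoter peak 137 bp upstream. Rps6ka1 had an intron peak 2.81 kb downstream, and Rps6ka3 was named for a peak 447 kb upstream. The pseudogenes Gm15421 and Gm5779 had peaks 42 kb and 19.7 kb from their starts.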

How the data were processed

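Reads were processed by the authors, whose methods name adapter trimming by fastp, alignment by Bowtie2 to mm10, removal of multimappers and duplicates by Sambamba, peak calling by MACS3, merging by bedtools of peaks that overlapped between samples, and annotation by HOMER. Tool versions are not stated there. The deposited table holds other quantities than read counts, namely the position of each peak in bp, its kind of region and its signed distance from the transcription start that the annotation assigned to it. Positions are 1 or 2 bp wide. The table carries no depth, height or replicate values, so no test across samples was made. Removing multimappers can lower coverage where processed pseudogenes resemble ribosomal protein exons.

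The members and all gene and motif lists were chosen with earlier results of these data known. Every member with a listed peak was named except 1, which enters the counts and medians but is not reported here. Also named were members without one that had another gene's peak within 1 kb of a RefSeq start, and rows left out by the rule. Symbols were matched by Entrez number to RefSeq genes of GRCm38.p6, and 137 of the 166 genes had a RefSeq promoter entry. Shares carry Wilson 95% intervals. Sequence windows were 100 bp on each side of the position. Python 3.11.15, pandas 2.3.3 and scipy 1.17.1 were used, and the scripts were tested on simulated data. Alternatives were other ways of assigning peaks to genes, other distance limits, other family definitions and other windows.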

Additional observations from a re-analysis of the deposited data

How the results depend on the processing

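The counts of listed genes stayed within 1.5 times under all 18 alternatives of assignment, distance and family. Given to the nearest RefSeq start, 6 cytosolic genes remained, since Rpl37 and Rps27a went to Card6 and Clhc1. The promoter share was 57.1% when only peaks within 100 bp counted and 85.7% within 500 bp. The median distance was 68 bp from the gene's own RefSeq start and the median GC content was 61.9% in a window of 50 bp on each side and 57.8% in one of 250 bp. The NeuroD E-box fell to 1 of 14 peaks in the window of 50 bp on each side, and the C-rich, YY1 and NRF1 letters were then found at 0. No paired analysis was possible because the merged list holds no value of a single library. For the same reason no replicate could be left out, and a stricter peak threshold or overlap was not run, since the table gives no score or width. With 14 members, only large differences from other genes can be told from counting error.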

Other observations

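Peaks listed at exactly 67 bp upstream of the start were seen at Rps3a1, Mrps30 and Mrps33, 3 of the 12 ribosomal promoter peaks, beside 2 of the 624 other promoter peaks. The distance was noticed in these data and was not tested. In the wider range of 59 to 75 bp upstream, centred on this distance, lay 4 of the 12 (33.3%) and 7.53% of the others. These 4 include the same 3 peaks, so the range is no separate evidence.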
